A study of Mus musculus with 8 samples.

Results

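The collagen and laminin chains of mouse sensory neurons are described here across 4 female and 4 male libraries. A gene was taken as a chain when its symbol in the deposited counts had the form of a collagen chain gene (Col, a number, a and a number) or a laminin chain gene (Lama, Lamb or Lamc and a digit). This gave 54 chains of 22609 gene symbols, of which 43 were collagen chains and 11 laminin chains. They were split into 11 fibrillar collagen chains, 17 basement membrane chains (collagen IV and the laminins) and 26 other collagen chains. All 54 had a gene model in the annotation used here.

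The female and male samples both came from naive C57BL/6J mice, 8 to 12 weeks old, the females in estrous phase. In both sexes a fluorescent lectin conjugate, WGA-488, had been injected into the left and right hindpaws and thigh muscles, and 2 days later the L3-L5 dorsal root ganglia (DRG), which hold the cell bodies of sensory neurons, were dissociated and put through a double sort for labelled cells. The sort selected for the dye, not for a neuronal gene, and skin and muscle neurons were mixed within a sample. Each sample held the ganglia of both sides at these levels, less than 10 ng of RNA was obtained, and cDNA was made from oligo-dT primers with PCR preamplification (SMART-seq2). Nothing in the labels separates technical from biological replicates beyond the sample number, so p-values measure the spread between these samples.

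Collagens are secreted proteins in which 3 chains wind into a triple helix, and they are assembled with the help of enzymes of the endoplasmic reticulum. Fibrillar collagens form the fibres of connective tissue, including the sheaths of peripheral nerves, whereas collagen IV and the laminins, each made of an alpha, a beta and a gamma chain, form the basement membrane that surrounds satellite glia, Schwann cells and blood vessels. In peripheral nerve and ganglia these genes are known mainly from Schwann cells, satellite glia, fibroblasts and vessel cells, and sensory neurons express some of them.

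The chain classes differ in their coding sequence, which is shown for the chains on which the results below turn. A collagen helix is encoded by codon triplets that open with a glycine codon (GGN). Runs of such triplets in reading frame were counted in the longest coding transcript of each chain. Short runs, under a fixed minimum length, were not counted. A value of 0 thus means no run of that length, not a lack of glycine codons. The longest run held 216 to 344 triplets in the 11 fibrillar chains (median 338), 39 to 66 in the 6 collagen IV chains (median 43.5), 28 to 113 in the 26 other collagen chains (median 48.5) and 0 in the 11 laminin chains. The collagen IV chains carried 22 to 27 separate runs each and the fibrillar chains 2 or 3. The sequences below each hold 90 coding bases of mouse build mm9, from the middle of the longest run for the first 4 chains, with the opening glycine codon of each triplet in capitals.
Col5a3: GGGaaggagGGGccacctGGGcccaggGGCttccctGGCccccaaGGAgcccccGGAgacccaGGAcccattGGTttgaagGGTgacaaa
Col1a1: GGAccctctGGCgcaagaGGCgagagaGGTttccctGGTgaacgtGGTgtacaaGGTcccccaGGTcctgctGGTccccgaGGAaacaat
Col1a2: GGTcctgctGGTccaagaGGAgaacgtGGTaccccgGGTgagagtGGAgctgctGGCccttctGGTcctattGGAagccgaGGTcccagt
Col28a1: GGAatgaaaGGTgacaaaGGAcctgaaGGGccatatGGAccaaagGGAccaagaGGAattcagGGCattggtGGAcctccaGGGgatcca
Col4a1: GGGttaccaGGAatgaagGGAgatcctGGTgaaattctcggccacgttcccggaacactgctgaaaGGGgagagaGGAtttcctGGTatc
The stretch of Col4a1 shows the end of its longest run of 40 triplets, an interruption of 30 bases with no capitals, and the start of a run of 17 triplets. The other 4 stretches come from inside a single run and so could hold no interruption. Col28a1 had 17 separate runs, the longest of 28 triplets, and Col5a3 2 runs, the longest of 337.

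The promoters of the 3 chains with the highest levels are shown because these chains made up the largest share of the class levels given below. They are the 250 bases before the transcription start from RefSeq (build GRCm38.p6), on the strand of the gene, at chr6:8192618-8192867 (minus strand) for Col28a1, chr9:20815068-20815317 (minus strand) for Col5a3 and chr12:31265043-31265292 (plus strand) for Lamb1. Capitals mark matches on either strand to the GC box GGGCGG, the CCAAT box CCAAT and the TATA box TATAAA, which do not overlap each other here.
Col28a1: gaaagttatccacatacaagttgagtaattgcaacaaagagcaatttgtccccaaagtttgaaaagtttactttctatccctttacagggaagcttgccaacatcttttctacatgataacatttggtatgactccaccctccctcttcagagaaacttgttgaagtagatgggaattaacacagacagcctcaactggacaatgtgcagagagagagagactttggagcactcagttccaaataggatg
Col5a3: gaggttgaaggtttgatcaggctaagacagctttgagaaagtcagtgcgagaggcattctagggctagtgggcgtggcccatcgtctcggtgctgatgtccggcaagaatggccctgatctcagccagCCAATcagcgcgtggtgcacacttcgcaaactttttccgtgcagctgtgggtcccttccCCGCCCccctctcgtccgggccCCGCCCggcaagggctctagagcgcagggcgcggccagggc
Lamb1: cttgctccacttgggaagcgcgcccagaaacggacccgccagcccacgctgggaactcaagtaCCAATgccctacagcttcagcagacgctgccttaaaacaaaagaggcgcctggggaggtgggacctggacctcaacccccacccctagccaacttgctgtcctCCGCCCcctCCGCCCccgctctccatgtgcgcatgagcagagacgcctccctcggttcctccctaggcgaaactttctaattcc
Col28a1 had no match in these bases and a GC content of 40.4%, whereas Col5a3 (62.8% GC) and Lamb1 (62% GC) each held GC boxes and a CCAAT box. Over windows of 250 bases before and 50 after the start, 26 of 44 promoters of 40 chains held a GC box (59.09%, against 35.66% of 32851 promoters in the table), 14 a CCAAT box (31.82% against 37.41%) and 5 a TATA box (11.36% against 13.62%). These matches describe the letters alone.

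Depth ranged from 4.80 to 7.33 M gene reads per library (M, 1e6 reads), so that 3 reads corresponded to 0.409 to 0.625 counts per M gene reads (CPM), and this limit covers counting error only. All 14 neuronal marker genes were detected in all 8 libraries, with a summed level of 27820 to 38115 CPM in females and 28937 to 31210 CPM in males. Non-neuronal markers were present too: the 11 Schwann cell markers summed to 2454 to 3220 CPM in females and 1967 to 2561 CPM in males, and the 5 satellite glia markers to 762 to 926 and 438 to 903 CPM. The 10 fibroblast markers, a list without collagens, summed to 50.2 to 58.3 CPM in females and 30.3 to 45.9 CPM in males, so the sexes did not overlap. Endothelial markers summed to 61.5 to 104 CPM in females and 65.1 to 81.1 CPM in males, mural cell markers to 46.7 to 92.0 and 79.4 to 102 CPM, and macrophage markers to 3.57 to 8.16 and 2.87 to 6.36 CPM. In such bulk samples, fewer cells of a type and less RNA per cell cannot be told apart.

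A pair of libraries stood apart in the chains and are named here before the levels. Female replicate 4 was the lowest female library for 20 of the 28 chains that passed the expression filter, against 39.3% of all genes tested, and male replicate 1 was the lowest male library for 22 of 28, against 33.4% of all genes. The median log2 ratio of a library to the other libraries of its sex was -0.86 over these chains in female replicate 4 and -0.84 in male replicate 1. Over all genes tested it was -0.016 and -0.019. Female replicate 4 was nonetheless far from the other females there, as the lowest for 39.3% and the highest for 38.1% of genes. Among 7652 genes in the range of exon lengths of these chains (3095 to 15228 bases), the median was -0.36 in female replicate 4 and -0.020 in male replicate 1. Female replicate 4 was the lowest female library for 55.8% of these genes, and male replicate 1 the lowest male library for 33.8%. Long genes were thus low as a group in female replicate 4, but not in male replicate 1.

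Collagen and laminin transcripts were present at low to moderate levels and a few chains made up most of them. Levels of different genes were compared per length, as reads per kilobase of exon per M gene reads (RPKM). On this scale, 14 chains had a mean over 1, 25 lay between 0.1 and 1, and 15 were under 0.1. Col28a1, Col5a3 and Lamb1 together held 39.0% of the summed RPKM of all chains, the first 5 chains (with Col4a1 and Col4a2) 52.6% and the first 10 chains 71.6%. With the longest transcript of each gene in place of the union of its exons, the first 3 chains were the same and held 39.8%, but Lamb1 (9.10 RPKM) lay above Col5a3 (6.05), and Col1a2 (4.60), Lama4 (3.48) and Col16a1 (2.97) lay above Col4a2 (2.41). The order of chains given below, per length of exon union, thus depends on the gene model. Col6a6 and Col9a1, a collagen VI and a collagen IX chain, had 0 reads in all 8 libraries.

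**Figure D1:**
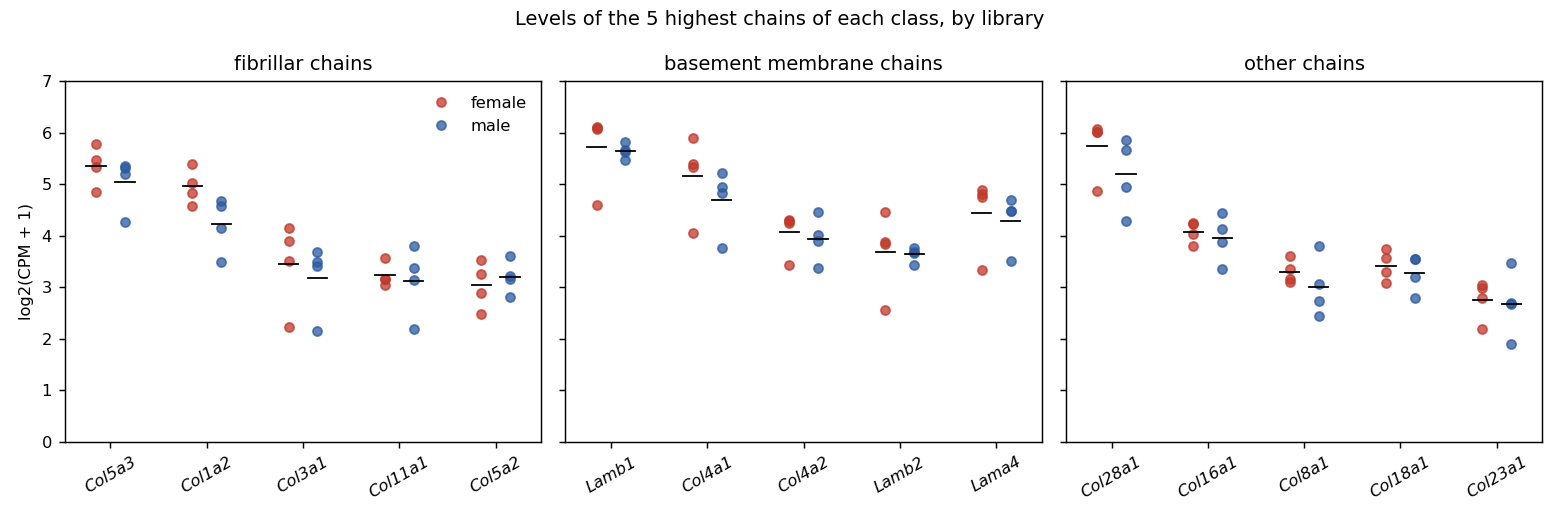
Level as log2(CPM + 1) (vertical axis) of the 5 chains with the highest mean RPKM in each class, in 4 female (red) and 4 male (blue) libraries. Each point is a library and black lines are means. Lamb1 and Col28a1 each show 3 female libraries close together near 6 and the fourth, female replicate 4, at 4.59 and 4.87.

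Among the other collagen chains, Col28a1 had the highest level of any chain, 9.61 ± 3.84 RPKM (SD, n = 8). Col28a1 (chr6:7947808-8142617, minus strand, mm9) encodes collagen XXVIII, a short collagen with von Willebrand factor A domains that is known from peripheral nerve, where it lies around non-myelinating glia. Its level was 63.8, 63.5, 66.0 and 28.3 CPM in female replicates 1 to 4. In male replicates 1 to 4 it was 18.6, 49.6, 56.6 and 29.9 CPM. Female replicates 1 to 3 exceeded every male library, while female replicate 4 fell among the males. The log2 fold change (female over male) was 0.51 ± 0.35 (SE), with an edgeR adjusted p of 0.785, and without female replicate 4 it was 0.73 ± 0.30 with an unadjusted p of 0.0330 and an adjusted p of 0.396. Without male replicate 1 it was 0.28 ± 0.31 (unadjusted p = 0.392, adjusted p = 0.972).

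The next chains of this class were Col16a1 (2.29 ± 0.520 RPKM), Col8a1 (1.62 ± 0.543 RPKM), Col18a1 (1.33 ± 0.305 RPKM) and Col23a1 (1.03 ± 0.398 RPKM; SD, n = 8 for each). Col16a1 encodes a fibril-associated collagen, Col8a1 a network-forming collagen of vessels, Col18a1 the collagen from which endostatin is cut and Col23a1 a transmembrane collagen. Their log2 fold changes lay between 0.01 and 0.21 with edgeR adjusted p-values from 0.878 to 0.997, so no sex difference beyond the spread between libraries was detected.

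The 3 collagen VI chains that assemble together, which form microfibrils around cells of the endoneurium and muscle, were lower. Col6a2 had 0.606 ± 0.301 RPKM, Col6a1 0.411 ± 0.195 and Col6a3 0.197 ± 0.108 (SD, n = 8). Col6a2 (chr10:76058507-76086375, minus strand) had 11.0, 4.51, 5.00 and 5.22 CPM in female replicates 1 to 4 and 3.002, 3.71, 3.80 and 4.14 CPM in male replicates 1 to 4. Every female library exceeded every male library, female replicate 1 by the widest margin. The log2 fold change of Col6a2 was 0.81 ± 0.31 (SE; edgeR unadjusted p = 0.0254, adjusted p = 0.656), and it was 0.41 ± 0.24 without female replicate 1 (unadjusted p = 0.124) and 0.73 ± 0.35 without male replicate 1 (unadjusted p = 0.0606). Col6a1 and Col6a3 had log2 fold changes of 0.60 ± 0.50 and 0.68 ± 0.53 with adjusted p-values of 0.805 for both. When 1 library was left out, these ranged from 0.25 (without male replicate 1) to 1.10 (without male replicate 4) for Col6a1 and from 0.34 (without male replicate 1) to 1.23 (without male replicate 3) for Col6a3. With a score of glial markers in the model, Col6a1 was at -0.16 ± 0.59 and Col6a3 at -0.066 ± 0.58. With a score of fibroblast markers they were at -0.17 ± 0.41 and 0.19 ± 0.60. Of the other collagen VI genes, Col6a4 and Col6a5 were under 0.1 RPKM.

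Among the basement membrane chains, Lamb1, the laminin beta 1 chain, was the highest with 5.30 ± 1.54 RPKM (SD, n = 8). When the longest transcript (5784 bases) replaced the union of exons (9917 bases), the level was 9.10 RPKM. Lamb1 (chr12:31950099-32014509, plus strand) had 67.0, 67.9, 66.5 and 23.1 CPM in female replicates 1 to 4 and 43.4, 49.5, 48.1 and 55.6 CPM in male replicates 1 to 4. Female replicates 1 to 3 lay close together and above all males, and female replicate 4 lay below all males. With all libraries, the log2 fold change was 0.18 ± 0.29 (SE; edgeR adjusted p = 0.892). Without female replicate 4 it was 0.44 ± 0.10, with an unadjusted p of 0.00104 and an adjusted p of 0.193, and without male replicate 1 it was 0.13 ± 0.32 (unadjusted p = 0.701).

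Transcripts of the other laminin chains were lower than those of Lamb1, and which laminins they form as protein was not measured. Lamb2 (beta 2) had 2.20 ± 0.799 RPKM, Lama4 (alpha 4, a chain known from vessels and Schwann cells) 1.74 ± 0.617, Lamc1 (gamma 1, the chain shared by most laminins) 1.54 ± 0.357 and Lama2 (alpha 2, of the Schwann cell basement membrane) 0.899 ± 0.380 (SD, n = 8). Per length, Lamb1 was 2.50 ± 0.466 times Lamb2 and Lama4 2.02 ± 0.645 times Lama2. Lama4 exceeded Lama2 and Lamb1 exceeded Lamb2 in all 8 libraries. With the longest transcripts the ratio of Lamb1 to Lamb2 was 4.28 and that of Lama4 to Lama2 4.02, the latter because the exon union of Lama4 (12068 bases) is longer than its longest transcript (6046 bases). Lama1 and Lama3 were at 0.172 and 0.139 RPKM, and Lama5, Lamb3 and Lamc3 were under 0.1 RPKM, with 0 reads in at least 1 male library each.

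The collagen IV network was represented by its ubiquitous chains. Col4a1 (chr8:11198423-11312826, minus strand) had 4.77 ± 2.16 RPKM and Col4a2 (chr8:11312805-11449287, plus strand) 2.35 ± 0.647 RPKM (SD, n = 8). These genes lie head to head and share 22 bases on opposite strands, where reads cannot be assigned to either without a strand option. Col4a1 had 58.3, 39.2, 41.0 and 15.5 CPM in female replicates 1 to 4 and 12.6, 29.9, 36.3 and 27.2 CPM in male replicates 1 to 4. The lowest libraries were female replicate 4 and male replicate 1, and female replicates 1 to 3 lay above all males. Per length, Col4a1 was 1.97 ± 0.600 times Col4a2 (SD, n = 8), from 1.29 in male replicate 1 to 3.14 in female replicate 1.

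Col4a1 had a log2 fold change of 0.53 ± 0.38 (SE; edgeR adjusted p = 0.793), which was 0.80 ± 0.28 without female replicate 4 (unadjusted p = 0.0177, adjusted p = 0.359) and 0.30 ± 0.35 without male replicate 1 (unadjusted p = 0.417). Col4a2 had 0.12 ± 0.27 with an adjusted p of 0.927. The chains restricted to specialised basement membranes were far lower than this pair: Col4a4 had 0.146 RPKM, Col4a5 0.109, Col4a3 0.0730 and Col4a6 0.00271. Col4a3 and Col4a4 also lie head to head, with 71 bases between them, as do Col4a5 and Col4a6 with 1308 bases.

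**Figure D2:**
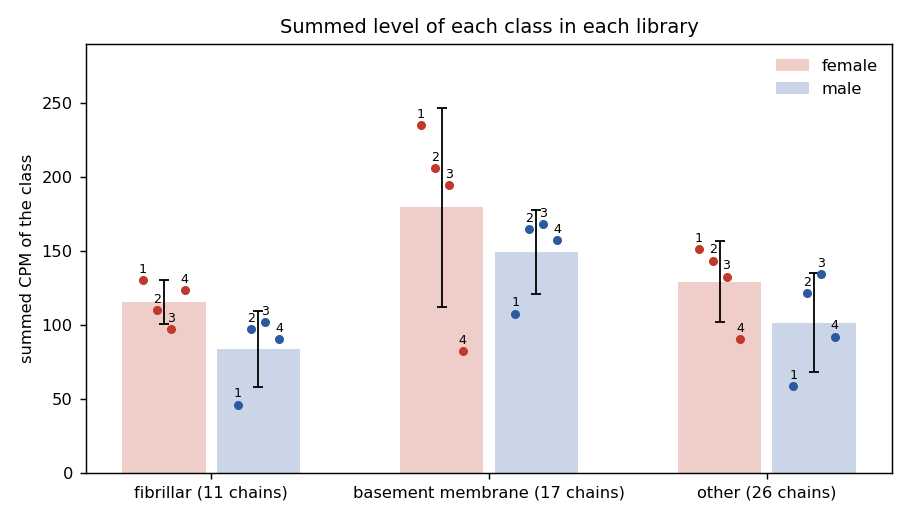
Summed CPM (vertical axis) of the chains of each class in each library. Bars are means, error bars SD (n = 4) and points the libraries, numbered by replicate. In the basement membrane class female replicate 4 lies at 82.2 CPM, below every male library, and male replicate 1 is the lowest male library in all 3 classes.

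Among the fibrillar chains, Col5a3, a collagen V chain known from peripheral nerve and Schwann cells, was the highest with 5.44 ± 1.54 RPKM (SD, n = 8). Col5a3 (chr9:20574494-20619511, minus strand) had 53.6, 43.2, 39.4 and 27.6 CPM in female replicates 1 to 4 and 18.3, 35.8, 38.6 and 39.6 CPM in male replicates 1 to 4. The sexes overlapped, and male replicate 1 lay below all other libraries. The log2 fold change was 0.29 ± 0.26 (SE; edgeR adjusted p = 0.813), and without male replicate 1 it was 0.099 ± 0.21. Per length, Col5a3 was 6.75 ± 1.72 times Col5a2, the collagen V alpha 2 chain (0.826 ± 0.234 RPKM), and Col5a1, the chain of most collagen V in other tissues, had 0.119 ± 0.0663 RPKM.

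Collagen I, the main collagen of bone, tendon and connective tissue, contains more alpha 1 than alpha 2 chains as protein, but its transcripts had another ratio here. Col1a2 (chr6:4454814-4491543, plus strand) had 31.6, 27.2, 22.9 and 40.9 CPM in female replicates 1 to 4 and 10.2, 24.4, 23.0 and 16.7 CPM in male replicates 1 to 4. The highest 2 values were female, the lowest 2 male, and the sexes overlapped. Females had a mean of 30.7 ± 7.71 CPM and males of 18.6 ± 6.47 CPM (SD, n = 4). The log2 fold change was 0.71 ± 0.27 (SE; edgeR unadjusted p = 0.0225, adjusted p = 0.651). The edgeR unadjusted p was 0.0542 without female replicate 4, 0.0556 without male replicate 4 and 0.0448 without male replicate 1. The log2 fold change was 0.55 ± 0.25 without female replicate 4 and 0.51 ± 0.22 without male replicate 1. Over all fits without 1 library it ranged from 0.51 to 0.87.

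Col1a1 (chr11:94797538-94814356, plus strand) was nearly absent from 7 libraries and high in 1. It had 18, 10, 6 and 194 reads in female replicates 1 to 4 (2.47, 1.74, 1.25 and 32.7 CPM) and 2, 5, 0 and 4 reads in male replicates 1 to 4 (0.273, 0.743, 0 and 0.592 CPM). Every female library exceeded every male library, and female replicate 4 was 18.0-fold above the mean of the other females. In the same library Col1a2 was at 40.9 CPM, against 27.3 ± 4.35 CPM in the other females (SD, n = 3), while Col3a1, the collagen III chain, was at 0.271-fold, Lamb1 at 0.344-fold and Col4a1 at 0.336-fold. Per length, the ratio of Col1a1 to Col1a2 was 1.48 in female replicate 4, 0.101 to 0.145 in the other females and 0 to 0.0655 in the males. With the longest transcripts it was 0.720 in female replicate 4, 0.0492 to 0.0706 in the other females and 0 to 0.0319 in the males.

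Col1a1 did not pass the expression filter and so had no value in the test of all genes. In a fit with no filter, where 52 chains were tested, 0 chains passed the adjusted threshold (against 0.0753% of 17254 genes), 5 were higher in females at an unadjusted p under 0.05 (against 4.14%) and 1 in males (against 2.32%). The latter, Col2a1, is not read as a difference, since no library had more than 2 reads of it. There Col1a1 had a log2 fold change of 4.46 ± 1.13 (SE; edgeR unadjusted p = 0.00162, adjusted p = 0.450). Its size rests on female replicate 4: the ratio of the mean CPM of females to that of males was 23.7 with all libraries and 4.53 without it, with 1.82 ± 0.617 CPM in the other 3 females and a male level of 0.402 ± 0.332 CPM (SD over 3 and 4 libraries). Summed over the fibrillar class, the mean was 115 ± 14.9 CPM in females and 84.0 ± 25.6 CPM in males (SD, n = 4), and without Col1a1 it was 106 ± 16.6 and 83.6 ± 25.6 CPM.

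Genes known from bone and marrow were examined beside Col1a1, as a list of 17 genes chosen after the values were seen. Of the 16 with reads, 15 had their highest level in female replicate 4. That library was the highest female library for 38.1% of all genes tested. Some of the 15 differed little from other libraries, such as Alpl (48.9 CPM against at most 46.9). Bglap (osteocalcin, made by osteoblasts) had 16 reads in female replicate 4 and 0 in the other 7 libraries. Sp7 (an osteoblast transcription factor) had 5 and 0. The neutrophil genes Elane, Ngp, S100a8 and Mpo had 17, 88, 145 and 59 reads in female replicate 4. Elsewhere Elane had 0 reads, and the highest values were 9 for Ngp, 26 for S100a8 (both in male replicate 1) and 3 for Mpo. The globin entry Beta-s, a red cell gene, had 162 reads there against at most 14 elsewhere. The 4 blood genes of the marker list summed to 3.71 CPM in female replicate 4 and to at most 0.444 CPM elsewhere, all of it from Alas2. The part of such cells in the level of Col1a1 was not tested.

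**Figure D3:**
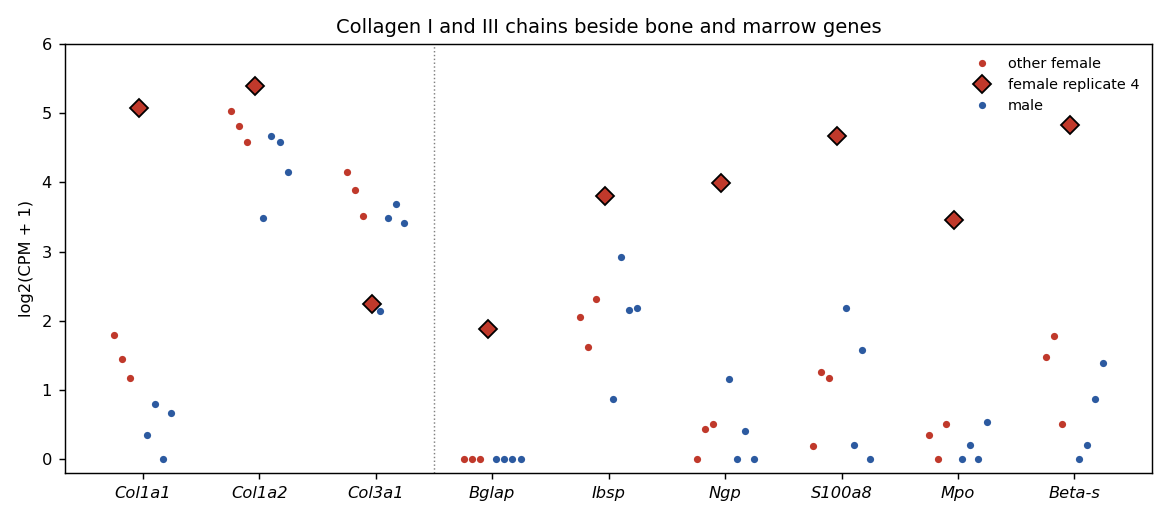
Level as log2(CPM + 1) (vertical axis) of the collagen I and III chains (left of the dotted line) and of 6 bone and marrow genes in the 8 libraries. Diamonds mark female replicate 4, red points the other females and blue points the males. Col1a1 and the 6 genes on the right were highest in female replicate 4, whereas Col3a1 was at 3.71 CPM there, near the lowest library (male replicate 1, 3.41 CPM).

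Col3a1, which is usually made together with collagen I in connective tissue, had 1.19 ± 0.548 RPKM (SD, n = 8) and a log2 fold change of 0.35 ± 0.44 (SE; edgeR adjusted p = 0.863), which was 0.65 without female replicate 4, 0.081 without male replicate 1 and 0.082 without female replicate 1. Col11a1, a minor fibrillar chain of cartilage and nerve, had 0.875 ± 0.284 RPKM and a log2 fold change of -0.01 ± 0.33. Of the remaining fibrillar chains, Col24a1 had 0.406 RPKM, and Col27a1, Col11a2 and Col2a1 had 0.131, 0.110 and 0.0185 RPKM. Col2a1, the chain of cartilage collagen, had 0 reads in all female libraries and 1 or 2 reads in each male library, under the limit of 3 reads.

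The sexes were then compared over all chains, the question the study put to its whole transcriptome. Of the 54 chains, 28 passed the expression filter and 26 did not. No chain passed an adjusted p of 0.05 in edgeR, as did only 0.0879% of the 12518 genes tested (11 genes, sex-linked genes included), and none passed it in DESeq2 or limma-voom. At an unadjusted p under 0.05, 2 chains were higher in females, Col1a2 and Col6a2 (7.14% of 28, against 4.44% of all genes), and 0 were higher in males (against 2.67%). The study selected genes by an unadjusted p under 0.05, a fold change over 1.5 or 2 and a level over 1 RPKM. With the edgeR p and a mean over 1 RPKM in the higher sex, Col1a2 (2.53 ± 0.634 RPKM in females, SD, n = 4) met the 1.5-fold rule and Col6a2 (0.773 ± 0.367 RPKM per exon union) did not reach the level. This was 1 chain higher in females, against 2.29% of 12388 tested genes with an exon length, and 0 higher in males, against 0.823%. With the longest transcript as the length, Col6a2 (1.31 ± 0.623 RPKM in females) reached it too, which gave 2 chains higher in females (against 2.4% of genes) and 0 in males (against 0.88%). With a looser level of 1 CPM, both Col1a2 and Col6a2 met it, against 2.63% of all genes for females, and 0 chains for males, against 1.02%. With a fold change over 2, no chain met the rule in either direction at 1 RPKM (against 0.638% of genes for females and 0.178% for males) or at 1 CPM (0.743% and 0.232%). DESeq2 and limma-voom also gave 2 chains higher in females and 0 higher in males at the unadjusted threshold.

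The direction of the differences was less evenly split. Of the 28 chains that passed the filter, 23 had a higher fitted level in females (82.1%), against 50.7% of all genes tested, and the median log2 fold change was 0.21, against 0.0034. By class, the fitted level was higher in females for 4 of 6 fibrillar chains, 8 of 10 basement membrane chains and 11 of 12 other chains. The lowest value was -0.27 for Lama1 and the highest 0.81 for Col6a2. Several chains changed direction when a score of glial or fibroblast markers was added to the model, as given below. Summed levels overlapped between the sexes: all chains together reached 517, 460, 424 and 296 CPM in female replicates 1 to 4 and 213, 384, 405 and 340 CPM in male replicates 1 to 4. Female replicate 4 lay below 3 of the 4 male libraries, and male replicate 1 was the lowest of all.

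The summed basement membrane level was 179 ± 67.0 CPM in females and 150 ± 28.3 CPM in males, and that of the other collagens 129 ± 27.1 and 102 ± 33.6 CPM (SD, n = 4 for each). The log2 ratios of the summed levels were 0.46 for the fibrillar, 0.26 for the basement membrane and 0.35 for the other chains. When 1 library was left out, they ranged from 0.25 to 0.56, from 0.11 to 0.50 and from 0.16 to 0.51. Chains whose sexes did not overlap were few: Col1a1 and Col6a2 were higher in all females, and Col4a4 and Col2a1 in all males. Of the 28 chains tested this was 1 chain, against 3% of all genes for females and 2.52% for males.

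**Figure D4:**
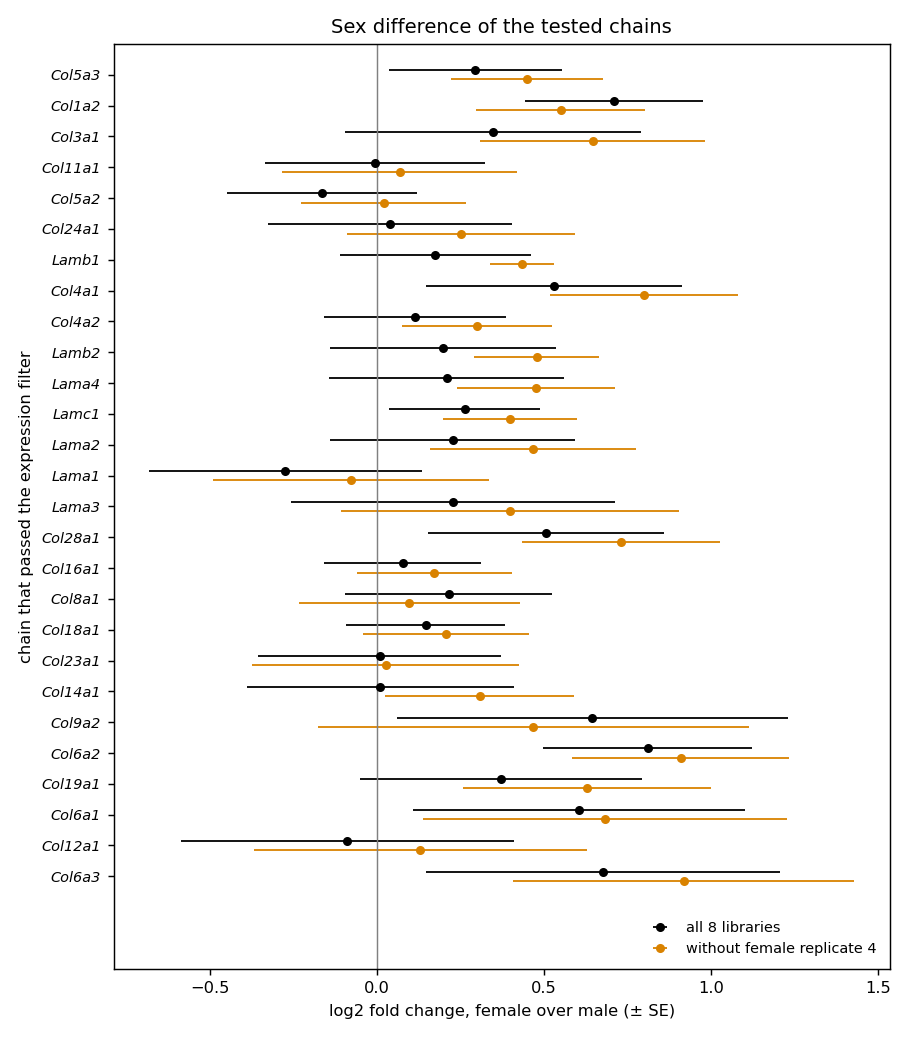
Log2 fold change, female over male, with its SE (horizontal axis) for 27 of the 28 chains that passed the filter (vertical axis, by class and level), with all 8 libraries (black) and without female replicate 4 (orange). With all libraries 23 of the chains shown lie above 0. Lamb1 has the narrowest error bar without female replicate 4.

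Without female replicate 4, 27 of these 28 chains were higher in females, with a median log2 fold change of 0.42. At an unadjusted p under 0.05, 5 of the 28 were higher in females (17.9%, against 5.7% of 12724 genes) and 0 in males (against 5.72%). They were Lamb1, Lamb2, Col4a1, Col28a1 and Col6a2, and Col1a2 was no longer among them. Without both female replicate 4 and male replicate 1, the same 5 of 28 were called (17.9%, against 5.18%) and 0 in males (against 4.56%), with a median of 0.26 and 22 of 28 higher in females. Without male replicate 1 alone, 27 of these chains were tested, and only Col1a2 was higher in females (3.7%, against 3.16% of 12607 genes) and 0 in males (against 1.49%), with a median of 0.081 and 16 of 27 higher in females. None passed the adjusted threshold in these 3 fits, as did 0.102%, 0.103% and 0.0714% of all genes.

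Col15a1, a collagen of basement membrane zones, had 3.85, 2.60, 1.88 and 1.18 CPM in female replicates 1 to 4 and 0.891 to 1.18 CPM in males. It did not pass the filter with all libraries. It passed when some libraries were left out, through its level in females, and is therefore not among the 28 chains counted in these fits. The 5 chains called with no filter include it.

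Schwann cell and fibroblast markers had members that were higher in females, while other marker lists had none or few. At an unadjusted edgeR p under 0.05 (4.44% of all genes higher in females, 2.67% in males), 5 of 9 Schwann cell markers and 3 of 4 fibroblast markers tested were higher in females, and none was higher in males. None of 5 satellite glia markers passed in either direction. Of 14 neuronal markers, 1 was higher in each sex, and of 3 endothelial and 4 mural cell markers, 1 each was higher in males and 0 in females. The mural cell list summed to 72.9 ± 20.1 CPM in females and 90.8 ± 11.3 CPM in males (SD, n = 4). Male replicate 1 had the lowest sum of the satellite glia (438 CPM), Schwann cell (1967 CPM) and fibroblast (30.3 CPM) lists among all 8 libraries. Female replicate 4 had the highest Schwann cell sum (3220 CPM) and a satellite glia sum of 926 CPM, close to female replicate 2. Its mural cell sum was the lowest of all 8 libraries (46.7 CPM, against 68.5 to 102 CPM in the others). Its endothelial sum (104 CPM, against 61.5 to 81.1 CPM) and neuronal sum (38115 CPM) were the highest. When a score of the glial markers was added to the model, 0 chains were higher in females at the unadjusted threshold and 1, Col11a1, was higher in males (against 1.12% and 0.959% of all genes). With this score the log2 fold change of Col1a2 was 0.20 ± 0.27 (SE; edgeR unadjusted p = 0.469), against 0.71 without it, whereas that of Col6a2 was 0.88 ± 0.43 (unadjusted p = 0.0672), against 0.81. With a fibroblast score, 0 chains passed in either direction (against 1.81% and 1.13%), and the values were 0.34 ± 0.24 for Col1a2 (unadjusted p = 0.186) and 0.68 ± 0.39 for Col6a2 (unadjusted p = 0.112). With the glial score, several other chains turned to lower fitted levels in females, among them Col28a1 (-0.023), Col5a3 (-0.062) and Lama4 (-0.18). Others, such as Col4a1 (0.14) and Lamb1 (0.16), stayed higher in females. The glial score was 5.758 to 5.988 in females and 4.925 to 5.762 in males. The sexes thus barely overlapped in it, and the fit cannot tell sex from the score. The part of these cells in the levels of the chains was not tested.

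**Figure D5:**
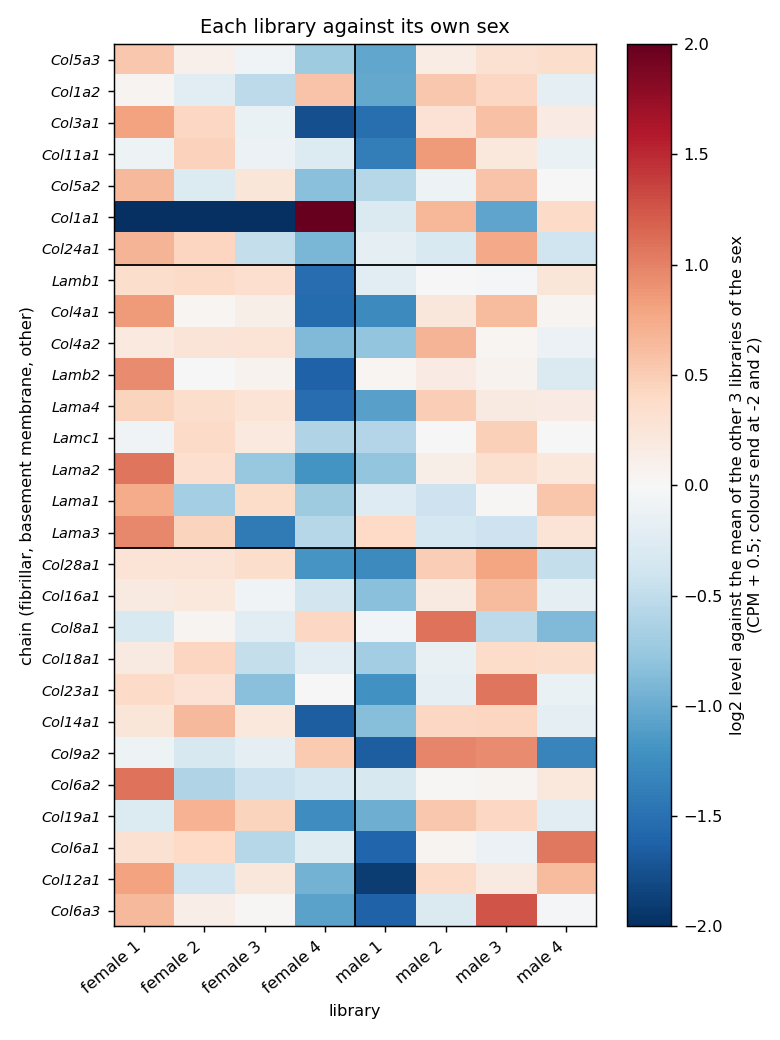
Log2 ratio of each library (columns) to the mean of the other 3 libraries of its sex (CPM + 0.5; red higher, blue lower) for 27 of the 28 chains that passed the filter and Col1a1 (rows, by class and level). Female replicate 4 and male replicate 1 are blue for most chains, with Col1a1, Col1a2, Col9a2 and Col8a1 higher in female replicate 4. The blue of Col1a1 in the other females comes from the mean that holds female replicate 4.

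Genes that work with the chains were examined as a list of 55: 8 matrix partners, 31 genes of synthesis and processing and 16 receptors. Of these, 42 passed the filter, 25 of them with a higher fitted level in females, and the median log2 fold change was 0.10. No gene of the list passed the adjusted threshold. At an unadjusted p under 0.05, 4 were higher in females (9.52%, against 4.44% of all genes) and 0 in males (against 2.67%).

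Of the matrix partners, Sparc, a collagen-binding matrix protein of glia and connective tissue, had 516, 520, 461 and 687 CPM in female replicates 1 to 4 and 181, 407, 440 and 370 CPM in male replicates 1 to 4. Every female library exceeded every male library, and unlike Lamb1 and Col4a1 its highest level was in female replicate 4. The log2 fold change was 0.62 ± 0.24 (SE; edgeR unadjusted p = 0.0250, adjusted p = 0.655). It was 0.50 ± 0.23 without female replicate 4 (unadjusted p = 0.0567), 0.42 ± 0.15 without male replicate 1 (unadjusted p = 0.0202), 0.058 ± 0.17 with the glial score (unadjusted p = 0.738) and 0.26 ± 0.18 with the fibroblast score (unadjusted p = 0.180). Nid1 (nidogen 1), which links laminin to collagen IV, had 63.5, 57.3, 57.7 and 20.7 CPM in females and 21.6, 42.3, 50.03 and 42.3 CPM in males. It thus had the same low libraries as Col4a1, with a log2 fold change of 0.34 ± 0.34 (adjusted p = 0.826), which was 0.60 ± 0.22 without female replicate 4 (edgeR unadjusted p = 0.0214) and 0.14 ± 0.32 without male replicate 1. All 5 partners tested, with Nid2, Hspg2 (perlecan) and Agrn (agrin), had a higher fitted level in females. Fibronectin (Fn1) had at most 5 reads in a library.

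Among the receptors, 13 of 16 were tested and 6 had a higher fitted level in females. The discoidin domain receptors, which bind collagen, were among them. Ddr1 had 62.3 ± 5.40 CPM in females and 46.6 ± 2.83 CPM in males (SD, n = 4), and the sexes did not overlap. Its log2 fold change was 0.40 ± 0.12 (SE; edgeR unadjusted p = 0.00629, adjusted p = 0.600), and 0.27 ± 0.13 with a correction for exon GC content (unadjusted p = 0.0643). Ddr2 had 10.9 ± 3.02 and 6.60 ± 1.72 CPM, with a log2 fold change of 0.71 ± 0.26 (unadjusted p = 0.0200, adjusted p = 0.641). Without male replicate 1 this was 0.56 ± 0.25 (edgeR unadjusted p = 0.0520), and without female replicate 1 or 2 the unadjusted p was 0.0580 or 0.0655. It was 0.40 ± 0.32 with the glial score (unadjusted p = 0.243) and 0.38 ± 0.27 with the fibroblast score (unadjusted p = 0.186). In the other direction, levels were higher in every male than in every female library for 1 of 42 tested genes of the list. The share over all genes was 2.52%. The reverse held for 3 of 42, against 3%. The gene higher in males was Itgb1 (integrin beta 1, a subunit of collagen and laminin receptors), named after its values were seen. It had 287, 318, 328.95 and 143 CPM in female replicates 1 to 4 and 329.31 to 350.4 CPM in males, so that the nearest libraries of the sexes almost met. Its log2 fold change was -0.36 ± 0.22 (SE; edgeR unadjusted p = 0.137, adjusted p = 0.768), and -0.15 ± 0.074 without female replicate 4 (unadjusted p = 0.0768). Bcam, which binds the laminin alpha 5 chain, and Gpr56, a receptor of collagen III, were the highest receptors per length, with 330 and 84.8 RPKM, and their log2 fold changes were -0.03 ± 0.10 and 0.09 ± 0.17. Lama5 and Col3a1 themselves were at 0.0873 and 1.19 RPKM.

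Of the genes of synthesis and processing, 24 of 31 were tested and 14 had a higher fitted level in females. The highest of them lay above every chain per length: Ppib (cyclophilin B) and P4hb (the beta subunit of prolyl 4-hydroxylase) had 180 and 105 RPKM, and their log2 fold changes were -0.01 ± 0.13 and 0.07 ± 0.10 (SE). Leprel4, of the prolyl 3-hydroxylase family, had 10.6, 13.9, 11.0 and 10.8 CPM in female replicates 1 to 4 and 5.18, 8.02, 7.27 and 7.69 CPM in male replicates 1 to 4. Every female library exceeded every male library, and the log2 fold change was 0.70 ± 0.19 (SE; edgeR unadjusted p = 0.00435, adjusted p = 0.563). With the glial score it was 0.40 ± 0.23 (unadjusted p = 0.116) and with the fibroblast score 0.49 ± 0.20 (unadjusted p = 0.0399). It was the only gene of the 24 tested in this group to pass the unadjusted threshold. The crosslinking enzyme Lox had at most 1 read in a library. Without female replicate 4, 10 of 43 partner genes passed the unadjusted threshold, all higher in females (23.3%, against 5.7%), and none passed the adjusted one. Without male replicate 1, 3 of 44 did (6.82%, against 3.16%): Ddr1, Leprel4 and Sparc.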

How the data were processed

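RNA of WGA-488-labelled DRG neurons was sequenced in 4 female and 4 male samples, grouped by the sex in their labels. The authors aligned reads to mm9 with TopHat2 and counted reads with HTSeq-count. The deposited values are these raw counts per gene. The versions, annotation release and strand option are not given in the sources used here, and reads carry no molecular identifiers. The 5 summary lines of the counter were dropped, which left 22609 symbols, with library sums of 4.80 to 7.33 M reads (M, 1e6). CPM divides counts by these sums, and RPKM also by the exon union of the GENCODE M1 annotation (mm9), which matched 95.8% of symbols. Coding sequences came from the same annotation and promoters from RefSeq (GRCm38.p6).

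Counts were tested with edgeR 4.0.16 (R 4.3.3, quasi-likelihood test, TMM, default filter, Benjamini-Hochberg adjustment over 12518 genes) with sex as the only term. The partner list, marker lists, named genes (the 5 highest chains per class per length, chains with an unadjusted p under 0.05, chains that assemble together, chains at 0, and partner genes by p or level) and alternatives were fixed with earlier results of these data known, as were the members. The bone and marrow list, the fit without 2 libraries and the level of 1 RPKM in the selection rule, with both gene lengths, were added after the values were seen. As alternatives, limma-voom (limma 3.58.1), DESeq2 1.42.0, other scalings and filters, exon length and GC corrections, marker scores as covariates, a replicate block and leaving out libraries were used. Tested on simulated data for the female against male comparison (12518 genes), the test recovered 64.5% of 200 genes changed 2-fold and 99% of those changed 4-fold. A few gene values are not reported here. Counts of libraries of one sex differed by more than counting error, with a chi-square per degree of freedom of at least 2.90. It was 32.3 to 48.0 for pairs with female replicate 4 and at most 12.8 for other pairs. The measure covers counting error only, as reads amplified by PCR are not independent molecules. Tables and figures were made with pandas 2.3.3, matplotlib 3.10.9 and Python 3.11.15.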

Additional observations from a re-analysis of the deposited data

Results flagged for a closer look

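In groups of 4 libraries, the highest or lowest was set apart when its gap to the nearest other library took up most of the whole range of the group (Dixon's 95% criterion). Of 54 groups tested (the named chains and class sums in each sex), 11 met it, where chance gives about 2.7, or 1 in 20. All values are on a log2 scale, as log2(CPM + 1) for chains. In female replicate 4, Col1a1 was at 5.07 (the other females at 1.17 to 1.80), Col28a1 at 4.87 (6.01 to 6.07), Col4a2 at 3.43 (4.25 to 4.30), Lama4 at 3.34 (4.76 to 4.88) and Lamb1 at 4.59 (6.08 to 6.11). In male replicate 1, Col5a3 was at 4.27 (the other males at 5.20 to 5.34), Lama2 at 2.60 (3.27 to 3.40), the log2 summed CPM of the fibrillar chains at 5.53 (6.50 to 6.68) and that of the basement membrane chains at 6.75 (7.30 to 7.39). Col6a2 in female replicate 1 was at 3.58 (the other females at 2.46 to 2.64), and Lamc3 in female replicate 2 at 0.605, where the other females had 0 reads.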

How the results depend on the processing

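No chain and no partner gene passed an adjusted p of 0.05 under any setting tried. The number of chains higher in females at an unadjusted p under 0.05 was 2 with all libraries. It was 5 with no filter on low counts (9.62% of 52, against 4.14% of all genes; Col1a2, Col6a2, Col1a1, Col15a1 and Lama5), where the 1 chain higher in males (against 2.32%), Col2a1, had at most 2 reads in a library and is not read as a difference. It was 0 with the glial score (1 higher in males, Col11a1) and 0 with the fibroblast score, and 6 without female replicate 4 and male replicate 1. Leaving out 1 library gave 1 to 6 chains. These counts take in Col1a1 and Col15a1, which passed the filter through their female level when a library was left out. Among the 28 chains that passed it with all libraries, the number was 5 without female replicate 4, 3 without male replicate 2 (with Col8a1) or male replicate 3 (with Col6a3), 1 without female replicate 1 (Col1a2), male replicate 1 (Col1a2) or male replicate 4 (Col6a2), and 2 (Col1a2 and Col6a2) without female replicate 2 or 3. With the replicate block the number was 1 (Col1a2). Beyond the number, the labels link no female library to a male library. Deviations of libraries with the same number correlated at 0.0906, -0.107, 0.141 and 0.00197. Other pairs lay between -0.24 and 0.15, so this check cannot tell whether libraries were prepared in pairs. Partner genes higher in females, 4 with all libraries, numbered 1 with the glial score (against 1.12% of all genes), 2 with the fibroblast score (1.81%), 9 without female replicate 4 and male replicate 1 (5.18%, and 1 higher in males, against 4.56%) and 3 to 10 when 1 library was left out (3.16% to 5.7%, and 0 to 1 higher in males, against 1.49% to 5.72%). The cause of these changes was not tested.

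Of 580 log2 fold changes of 29 named genes under 20 settings, 521 kept their direction and 59 reversed it, none of a gene past the adjusted threshold, and 9 genes never reversed. With the glial score the values were Col16a1 -0.32, Col18a1 -0.18, Col23a1 -0.57, Col28a1 -0.023, Col3a1 -0.15, Col4a2 -0.22, Col5a3 -0.062, Col6a1 -0.16, Col6a3 -0.066, Lama4 -0.18, Lamc1 -0.058, Nid1 -0.035 and Bcam 0.057. With the fibroblast score they were Col16a1 -0.18, Col18a1 -0.16, Col23a1 -0.47, Col3a1 -0.12, Col4a2 -0.12, Col5a3 -0.014, Col6a1 -0.17, Lama2 -0.15, Lama4 -0.085 and Bcam 0.023. The GC correction gave Col16a1 -0.045, Col23a1 -0.052, Col4a2 -0.010 and Col11a1 0.072. Col11a1 was also at 0.13 in limma-voom, 0.013 with library size alone, 0.077 with the length correction and 0.085 with the replicate block. Col23a1 was at -0.0011 in DESeq2 and Ppib at 0.0098 with library size alone. Without female replicate 4 and male replicate 1, Col16a1 was at -0.00046 and Col23a1 at -0.21. Leaving out 1 library gave ranges of -0.26 to 0.28 for Col11a1, -0.091 to 0.27 for Col16a1, -0.0035 to 0.25 for Col18a1, -0.23 to 0.39 for Col23a1, -0.046 to 0.33 for Col4a2, -0.37 to 0.020 for Col5a2, -0.15 to 0.47 for Lama2, -0.12 to 0.48 for Lamb2 (0.50 without both of the libraries named above), -0.085 to 0.016 for Bcam, -0.015 to 0.25 for Gpr56, -0.0025 to 0.11 for P4hb and -0.15 to 0.051 for Ppib. With the longest transcript in place of the exon union, 17 chains in place of 14 had a mean over 1 RPKM. Of the 26 chains that did not pass the filter, none had more than 239 reads in all, and a chain with fewer than 3 reads in a library cannot be told from absent there.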
